A study of Mus musculus with 8 samples.

Results

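The cytosines described here are those at which both 5-formylcytosine (5fC) and 5-carboxylcytosine (5caC) were listed, on the same strand, in Tdg knockout mouse embryonic stem cells. They were found by matching chromosome, position and strand between the authors' list of 7213 5fC cytosines and their list of 4806 5caC cytosines. There were 314 of them among the 11705 cytosines on either list. As shares of the lists this is 4.35% for 5fC (3.89 to 4.85, exact 95%) and 6.53% for 5caC (5.85 to 7.27). All 314 are described, and all had the 10 reads per library that the lists show as their minimum.

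Both bases are late products of active DNA demethylation. TET dioxygenases oxidise 5-methylcytosine (5mC) stepwise to 5-hydroxymethylcytosine (5hmC), then to 5fC, then to 5caC. Thymine DNA glycosylase (TDG) excises 5fC and 5caC but not 5mC or 5hmC, and base excision repair then puts an unmodified cytosine in their place. In cells that lack TDG both bases build up, which makes them easier to map. A cytosine on both lists is therefore a place where the intermediate and the end product of the same oxidation series were both listed. The lists rest on unadjusted p-values, so some members may be listed without holding both bases.

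The series holds 8 libraries of feeder-free embryonic stem cells kept with LIF, strain C57BL/6-ICR, 1 library per combination of genotype, antibody and treatment. The 4 used here are all Tdg -/-, and they differ in antiserum (5fC or 5caC) and in treatment (traditional bisulfite or chemical protection). The volume of antiserum also differed, and was larger for 5fC than for 5caC. The 4 libraries of Tdg fl/fl cells were not analysed here, so nothing below compares cells with and without TDG. The sources used here do not say whether the knockout line is 1 clone. Genomic DNA was sheared to about 400 bp and pulled down with the antiserum, so every value refers to captured fragments.

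Traditional bisulfite treatment leaves 5mC and 5hmC reading as C and turns 5fC, 5caC and plain cytosine into T. The percentage of C reads without protection, called the bisulfite-only percentage below, therefore stands for 5mC plus 5hmC. Protection with O-ethylhydroxylamine keeps 5fC reading as C, and coupling of an amine to the activated acid does the same for 5caC. The level of a mark is the protected minus the bisulfite-only percentage, in percentage points. Reads still converted after protection come from unmodified cytosine, from the oxidised base that was not protected, or from incomplete protection, and these cannot be told apart.

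The read counts that gave these values also put the cytosines on the lists, so levels, bisulfite-only and protected percentages are given as descriptions, without tests. Each group was a single library, and no spread between libraries could be measured. Single percentages carry exact 95% intervals and single levels Newcombe 95% intervals, which cover counting error only. Where a count is 0, the limit printed is the share that 3 counts of the total would give, not the upper end of the exact interval, which is somewhat higher. Medians over cytosines carry 95% intervals from ranks, which treat cytosines as independent. At the 314 cytosines depth ran from 10 to 1291 protected and 10 to 1133 bisulfite-only reads in the 5fC libraries, and from 10 to 1101 and 10 to 1063 in the 5caC libraries. The shallowest of the 4 libraries had a median of 14 reads, and 246 cytosines (78.3%) had under 20 reads in at least 1 library.

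Cytosines listed for both marks had a lower bisulfite-only percentage in the 5fC libraries than cytosines listed for 5fC alone. This percentage is part of the contrasts that made both lists, so the difference is a description only. Against the nearest 5fC-only neighbour within 200 bp the gap was smaller, with medians of 25% at 135 shared cytosines and 29.4% at the neighbours. The median bisulfite-only percentage was 23.1% (20.9 to 25) at the shared cytosines and 41.7% (40.7 to 42.1) at the 6899 5fC-only cytosines, a difference of -18.6 points (-20.8 to -16.5). At least 50% of bisulfite-only reads were unconverted at 30 shared cytosines (9.55%, exact interval 6.54 to 13.4) but at 2837 5fC-only cytosines (41.1%, 40.0 to 42.3). With 5fC protected, the shared cytosines reached a median of 66.7% unconverted reads and the 5fC-only cytosines 86.7%. The 5fC level had medians of 40.9 points (38.8 to 42.9) and 40.5 points (40 to 41.1). The listing rule ties which levels can be listed to depth, so nothing is read from their closeness.

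The remainder that stayed converted after 5fC protection had a median of 33.3% of reads at shared cytosines and 13.3% at 5fC-only cytosines. It is the complement of the protected percentage above, so this is the same difference and not a separate result. No converted read was left at 4 shared cytosines (1.27%, 0.348 to 3.23) and at 1492 5fC-only cytosines (21.6%, 20.7 to 22.6). Converted reads include those of 5caC, which the 5fC reagent does not shield from bisulfite. How much of the remainder is 5caC was not measured in these fragments, because 5caC was read in DNA captured by the other antiserum.

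In the 5caC libraries the shared cytosines stood close to the 4492 cytosines listed for 5caC alone. Their median bisulfite-only percentage was 12.5% (10 to 14.7) against 10% (10 to 10), a difference of 2.50 points (0 to 4.71). Protected percentages had medians of 57.7% and 58.3%, and 5caC levels of 40.8 points (39.2 to 42.9) and 42.9 points (42.4 to 43.3). The low end of the range was thinner, however, with no unconverted bisulfite-only read at 56 shared cytosines (17.8%, 13.8 to 22.5) and at 1299 5caC-only cytosines (28.9%, 27.6 to 30.3). A count of 0 is less likely with more reads, and the median depth was 16 bisulfite-only reads at shared and 13 at 5caC-only cytosines. The low end was not compared at equal depth. The high end was thinner too, with a bisulfite-only percentage of at least 50% at 14 (4.46%, 2.46 to 7.37) and 476 (10.6%, 9.71 to 11.5).

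**Figure D1:**
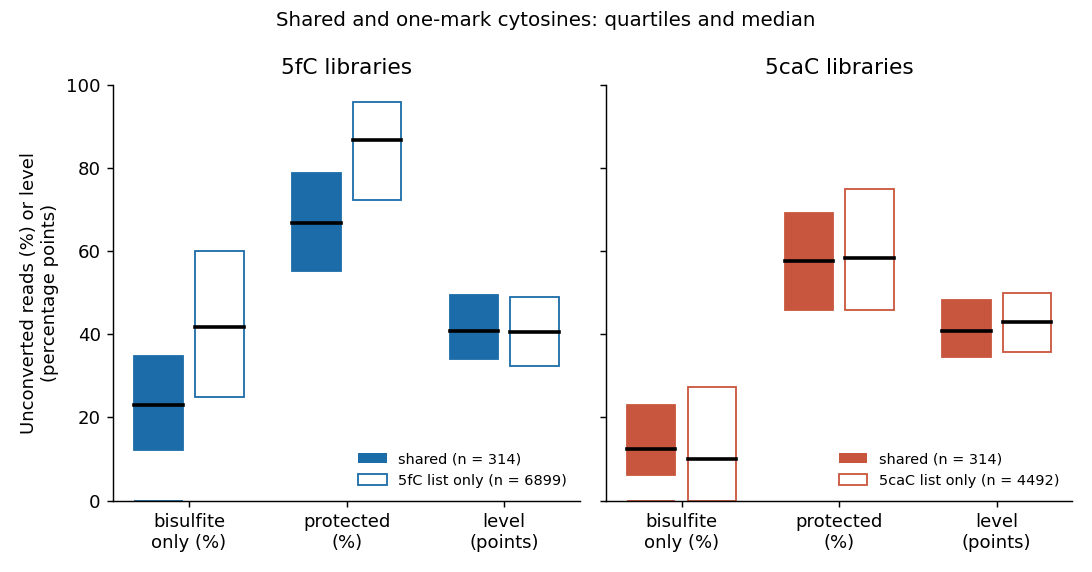
Unconverted reads with bisulfite alone and with protection (percent) and the level of the mark (percentage points), for shared cytosines (filled) and cytosines on 1 list (open), in the 5fC libraries (left) and the 5caC libraries (right). Boxes run from the lower to the upper quartile over cytosines and black lines are medians; the 5fC bisulfite-only median is 23.1% at shared and 41.7% at 5fC-only cytosines, while the 5caC medians are 12.5% and 10%.

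Depth differed between these sets. Shared cytosines had a median of 25 protected and 19 bisulfite-only 5fC reads, against 19 and 14 at 5fC-only cytosines, and 27 and 16 5caC reads against 19.5 and 13. In a band of 20 to 39 reads in both libraries of a mark, chosen after seeing the data, the 5fC bisulfite-only median was 25% at 66 shared and 50% at 793 5fC-only cytosines (difference -25 points, -28.3 to -19.5). In the same band the 5caC medians were 16.7% at 43 shared and 13.0% at 366 5caC-only cytosines (3.62 points, -2.07 to 16.3). Listing in the 5caC libraries also chose the shared cytosines, and how far that listing alone sets their 5fC bisulfite-only percentage was not tested.

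The authors' deposited table gives an unadjusted Fisher's exact p per cytosine, which is the measure that made the lists. A deposited p below 0.01 for 5fC was held by 163 of the 314 cytosines (51.9%), where 33.8 percent of the whole 5fC list had one. For 5caC it was 153 (48.7%), where 36.1 percent of the whole 5caC list had one, and 81 cytosines (25.8%) were below 0.01 for both marks. Nothing is read from these counts, since the same contrast chose the members. Among the 314, those nearest to the listing limit of 0.05 in the authors' deposited table were position 3000472 of chromosome 9 and position 17488773 of chromosome 12 for 5fC, both at 0.0498, and position 71330058 of chromosome 7 for 5caC, at 0.0495. Cytosines just outside the limit are not analysed here, since the lists hold listed rows only.

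At single cytosines the levels of the marks lay close together on average but agreed loosely. The 5fC level exceeded the 5caC level at 163 cytosines and fell below it at 151, with a median difference of 0.71 points (-0.99 to 2.20). The middle of the distribution ran from -6.31 to 7.83 points between the quartiles, and 191 cytosines (60.8%) had levels within 10 points of each other. Across the 314 cytosines the rank correlation of the levels was 0.34 (Spearman), and across the 68 with at least 20 reads in all 4 libraries it was 0.47. Both levels depend on depth, which the libraries share in part: the reads of the protected 5fC and 5caC libraries had a rank correlation of 0.39, and the 5fC and 5caC levels had rank correlations of -0.54 and -0.48 with the depth of the shallowest library.

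**Figure D2:**
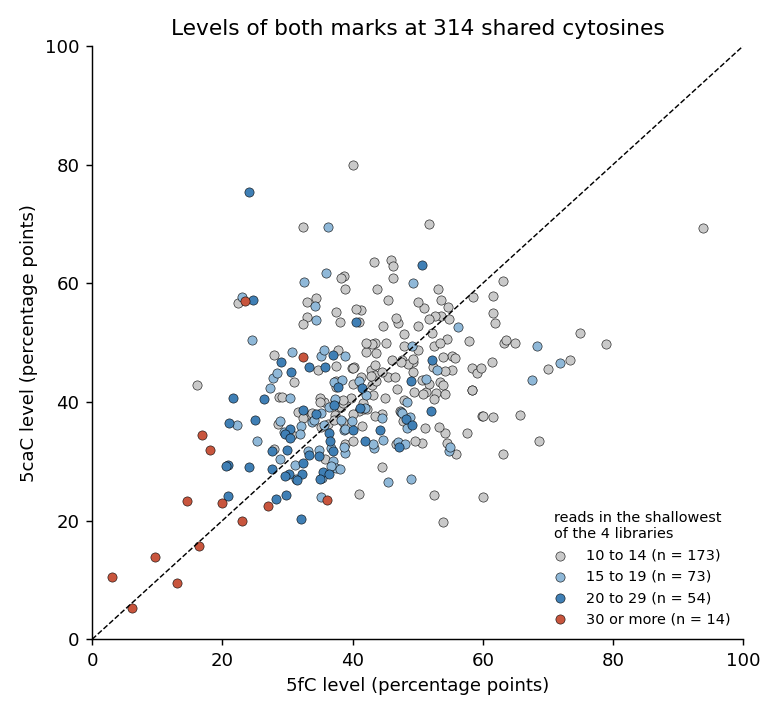
5fC level (x axis) against 5caC level (y axis), in percentage points, at each of the 314 shared cytosines, coloured by the reads in the shallowest of the 4 libraries; the dashed line marks equal levels. The 14 cytosines with 30 or more reads lie at the lower left apart from a few with a high 5caC level, and those with 10 to 14 reads spread widest.

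Levels were lower at deeper cytosines. Among the 173 cytosines with 10 to 14 reads in the shallowest library the median levels were 46.3 points for 5fC and 45 for 5caC. They were 37.3 and 36.9 at 73 cytosines with 15 to 19 reads, and 32.8 and 35.0 at 54 cytosines with 20 to 29 reads. The 14 cytosines with 30 or more reads had medians of 17.5 and 22.7 points. A small level can pass the listing rule only with many reads, so levels at different depths are not compared further.

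The difference between the marks changed its sign with how it was expressed. As a share of the reads that bisulfite alone converted, the median rise with protection was 55.8% for 5fC and 50.2% for 5caC, and this relative rise was higher for 5fC at 206 cytosines and for 5caC at 108 (paired difference 5.78 points in the median, 3.90 to 7.92). With the reads of all 314 cytosines summed, the 5fC level was 27.7 points and the 5caC level 32.1, which is -4.43 points for 5fC minus 5caC. The 5 cytosines with at least 100 reads in every library held 31.2% of the summed 5fC reads and 24.1% of the summed 5caC reads. Without them the summed levels were 38.4 and 38.3 points. No order of the marks held across these settings.

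The highest pair of levels was at position 115919694 of chromosome 11, minus strand. Unconverted reads there were 0 of 10 with bisulfite alone and 15 of 16 with protection in the 5fC libraries, and 0 of 11 and 18 of 26 in the 5caC libraries. The levels were 93.8 points (58.3 to 98.9) and 69.2 points (37.0 to 83.5), and their intervals overlapped. By the 3-count limit, these counts of 0 allow bisulfite-only percentages of up to 30% and 27.3%. Both levels were at least 50 points at 27 of the 314 cytosines (8.60%, 5.74 to 12.3). Among the 10 cytosines with the highest smaller level, the minus-strand cytosine at 95630347 on chromosome 13 read as C in 3 of 14 bisulfite-only and 12 of 16 protected 5fC reads, and in 0 of 12 and 8 of 14 5caC reads. The one at 45357035 on chromosome 19, also minus, did so in 1 of 12 and 12 of 19 5fC reads and in 1 of 19 and 16 of 27 5caC reads. Each of these 10 had between 10 and 14 reads in its shallowest library, so their intervals are wide.

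The 95% interval of the difference between the 5fC and 5caC levels excluded 0 at 9 of the 314 cytosines, or 2.87 percent. The intervals are not adjusted for their number. Some of 314 would exclude 0 without any difference, so the single cytosines below are examples only. At 8 of the 9 the 5caC level was the higher one. The largest gap was at position 73822397 of chromosome 18, plus strand, with 63 of 84 protected and 30 of 59 bisulfite-only reads for 5fC and 21 of 22 and 4 of 20 for 5caC. Its levels were 24.2 points for 5fC and 75.5 points for 5caC, a difference of -51.3 points (-71.6 to -20.0). The minus-strand cytosine at 80425512 on chromosome 15 read as C in 26 of 53 and 12 of 47 reads for 5fC and in 40 of 62 and 3 of 40 for 5caC, a difference of -33.5 points (-55.9 to -9.33).

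The exception with more 5fC was position 31318144 of chromosome 14, minus strand. It read as C in 14 of 26 protected and 0 of 13 bisulfite-only reads for 5fC, and in 15 of 52 and 3 of 33 for 5caC. The 5fC level was 53.8 points and the 5caC level 19.8 points, a difference of 34.1 points (1.32 to 59.1). Nothing is read from the number of such cytosines, since the same reads chose the members.

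Shared cytosines with more 5mC plus 5hmC signal in the 5fC library mostly had more of it in the 5caC library too. Bisulfite-only percentages had a rank correlation of 0.59 across the 314 cytosines and 0.74 across the 68 with at least 20 reads in all 4 libraries, as a description of cytosines that share depth and neighbourhood. With classes of under 20%, 20 to under 50%, and 50% or more, 192 cytosines (61.1%) fell in the same class in both libraries. Of the others, 105 were in a higher class in the 5fC library and 17 in a higher class in the 5caC library. No cytosine was under 20% in the 5fC library and at 50% or more in the 5caC library, while 5 were the other way round.

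**Figure D3:**
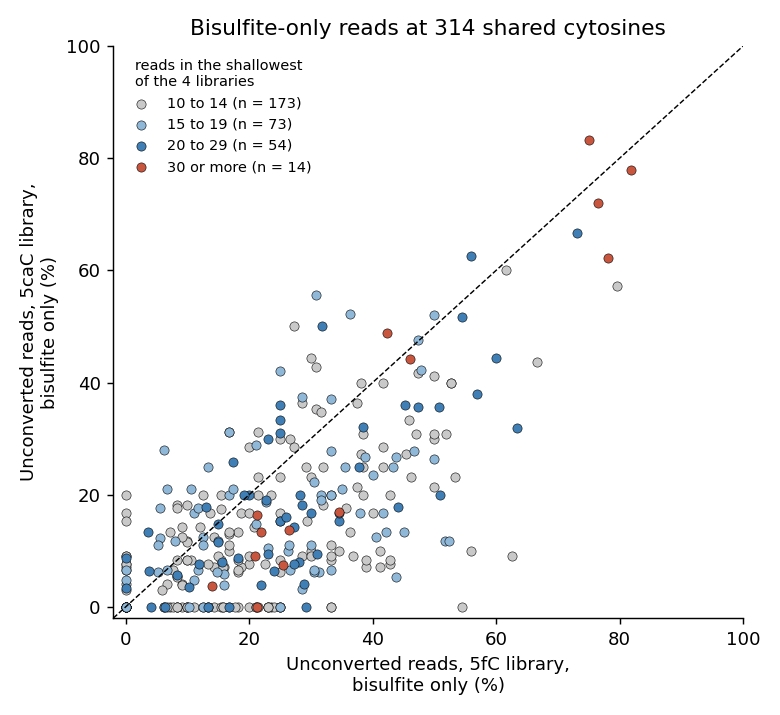
Unconverted reads with bisulfite alone (percent) in the 5fC library (x axis) and the 5caC library (y axis) at each of the 314 shared cytosines, coloured by the reads in the shallowest of the 4 libraries; the dashed line marks equal percentages. More points lie below the line than above it, in every depth class, and the 5 cytosines with the highest values in both libraries include 4 with 30 or more reads.

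This lean toward the 5fC library was present at every depth. The bisulfite-only percentage was higher in the 5fC library at 126 and lower at 38 of the 173 cytosines with 10 to 14 reads, at 45 and 24 of the 73 with 15 to 19 reads, and at 40 and 13 of the 54 with 20 to 29 reads. At the 14 cytosines with 30 or more reads it was higher at 12 and lower at 2, position 118220674 of chromosome 4 and position 3093066 of chromosome 11, and the paired difference had a median of 9.49 points. The exact intervals of the bisulfite-only percentages were apart at 3 of the 314 cytosines, or 0.955 percent, each time with the 5fC library higher. With 1 library per antiserum, antiserum, its volume and library cannot be told apart.

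The deepest of the 3 lay on the plus strand of chromosome 15, at 74917322. There 129 of 373 5fC reads (34.6%, 29.8 to 39.7) and 56 of 332 5caC reads (16.9%, 13.0 to 21.3) were unconverted with bisulfite alone. With protection both libraries came to nearly the same percentage, 247 of 480 (51.5%) and 210 of 409 (51.3%). The levels were therefore 16.9 points for 5fC (10.2 to 23.3) and 34.5 points for 5caC (27.9 to 40.5), and it is 1 of the 9 cytosines whose level difference excluded 0. At position 81855914 of chromosome 8, plus strand, 14 of 32 5fC reads and 1 of 19 5caC reads were unconverted with bisulfite alone, yet the levels were 31.3 and 27.0 points with overlapping intervals.

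The widest gap in bisulfite-only percentage was at position 73298747 of chromosome 15, plus strand, with 6 of 11 reads in the 5fC library and 0 of 12 in the 5caC library, a difference of 54.5 points. With protection 23 of 23 5fC reads and 12 of 21 5caC reads were unconverted. The widest gap the other way was at position 118700609 of chromosome 10, minus strand, with 8 of 26 and 10 of 18 reads, a difference of -24.8 points. Protected reads there were 40 of 51 for 5fC and 15 of 16 for 5caC.

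Grouped by what bisulfite alone showed, the largest class of shared cytosines had an observed percentage under 20% in both libraries. It held 119 cytosines (37.9%), where the median levels were 44.4 points for 5fC and 40.6 for 5caC. The shallowest library had a median of 12 reads there, so single percentages have wide intervals and higher true values are possible. In the 5fC library 54.5% of protected reads were unconverted in the median of this class, and in the 5caC library 48%. A further 85 cytosines (27.1%) lay at 20 to under 50% in the 5fC library and under 20% in the 5caC library, with median levels of 38.7 and 42.3 points. Both percentages were at 20 to under 50% at 63 cytosines, with levels of 41.7 points for each mark.

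At 10 cytosines (3.18%, 1.54 to 5.78) bisulfite alone left no unconverted read in either library, so 5mC and 5hmC were not detectable there at this depth. At 5079927 on chromosome 6, minus strand, unconverted bisulfite-only reads were 0 of 16 and 0 of 18 in the 5fC and 5caC libraries, which by the 3-count limit allows up to 18.8% and 16.7%. Protected reads were unconverted in 9 of 28 (32.1%, 15.9 to 52.4) for 5fC and 14 of 39 (35.9%, 21.2 to 52.8) for 5caC. Position 96032141 of chromosome 11, plus strand, gave 0 of 18 and 0 of 16 bisulfite-only reads, against 5 of 18 protected 5fC and 11 of 25 protected 5caC reads. Position 96461753 of chromosome 15, plus strand, gave 0 of 20 and 0 of 12, against 10 of 25 and 5 of 15.

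At another 10 cytosines at least 50% of bisulfite-only reads were unconverted in both libraries, which caps a level at 50 points. Median levels there were 18.6 points for 5fC and 27.1 for 5caC. As a share of the reads that bisulfite alone converted, the median rise was 70.7% for 5fC and 63.4% for 5caC. It was 50.4% and 44.1% at the 119 cytosines with both percentages under 20%. The median depth of the shallowest library was 24 reads at the 10 cytosines and 12 at the 119. The listing rule ties the rise that can be listed to depth and to the bisulfite-only percentage, so nothing is read from this contrast. Position 118220674 of chromosome 4, plus strand, read as C in 87 of 116 bisulfite-only and 103 of 117 protected 5fC reads, and in 114 of 137 and 101 of 109 5caC reads. Its levels were 13.0 points (3.05 to 22.8) and 9.45 points (1.06 to 17.4). On the X chromosome, position 166425627, plus strand, gave 62 of 81 and 118 of 127 5fC reads and 41 of 57 and 64 of 73 5caC reads, for levels of 16.4 and 15.7 points.

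Counting error was smallest at the deepest members. Position 74917176 of chromosome 15, plus strand, had 986 or more reads in every library. It read as C in 210 of 986 bisulfite-only and 354 of 1291 protected 5fC reads, a level of 6.12 points (2.62 to 9.56). In the 5caC libraries it did so in 175 of 1063 and 240 of 1101 reads, a level of 5.34 points (2.01 to 8.64). The difference between the marks was 0.79 points (-4.07 to 5.60).

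Position 3000472 of chromosome 9, plus strand, was mostly 5mC or 5hmC, with 928 of 1133 bisulfite-only 5fC reads (81.9%) and 309 of 397 5caC reads (77.8%) unconverted. Its 5fC level was 3.05 points (0.01 to 6.09) and its 5caC level 10.6 points (5.62 to 15.6). Position 3093066 of chromosome 11, plus strand, gave levels of 9.68 and 13.9 points over at least 217 reads per library. Mapping of the reads at these very deep positions to more than 1 genomic copy was not tested. At moderate depth, position 102639039 of chromosome 11, plus strand, gave 9 of 64 and 18 of 53 5fC reads and 2 of 54 and 20 of 75 5caC reads, for levels of 19.9 and 23.0 points.

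**Figure D4:**
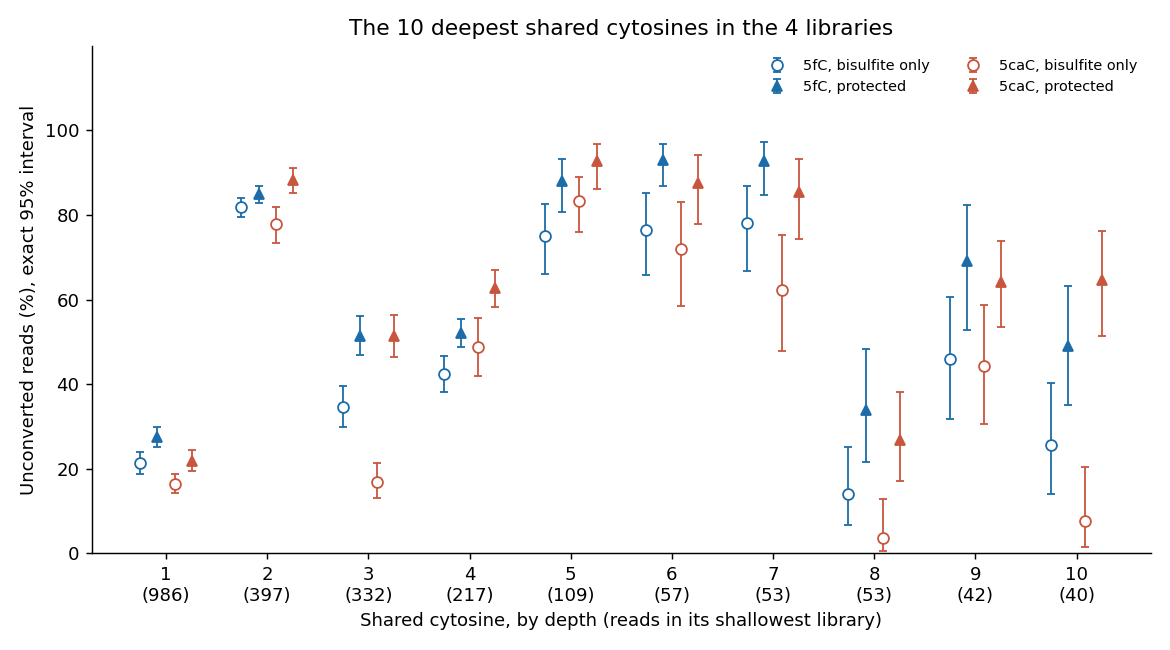
Unconverted reads (percent, with exact 95% intervals) in the 4 libraries at the 10 shared cytosines with the most reads in their shallowest library, numbered by that depth, which stands in brackets; circles are bisulfite only, triangles protected. In order they are chromosome 15 at 74917176, chromosome 9 at 3000472, chromosome 15 at 74917322, chromosome 11 at 3093066, chromosome 4 at 118220674, X at 166425627, chromosome 11 at 3046174, 102639039 and 98923322, and chromosome 15 at 80425512; the 5caC bisulfite-only percentage stands clearly below the 5fC one at the third.

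Shared cytosines more often had another cytosine of either list close by than cytosines on 1 list. Within 200 bp, 207 of the 314 (65.9%, 60.4 to 71.2) had another cytosine of either list, against 2953 of 6899 5fC-only cytosines (42.8%, 41.6 to 44.0) and 1966 of 4492 5caC-only cytosines (43.8%, 42.3 to 45.2). The difference was 23.1 points (Newcombe interval 17.6 to 28.3) from the former and 22.2 points (16.6 to 27.4) from the latter. These intervals treat cytosines as independent, which neighbours are not. In the band of 20 to 39 reads the differences were 22.2 points (10.2 to 31.3) and 15.3 points (-0.01 to 26.6), so against 5caC-only cytosines the interval reached 0 there. With neighbours of the same list only, the gaps were smaller. Another 5fC cytosine lay within 200 bp of 149 shared (47.5%, 41.8 to 53.1) and 2606 5fC-only cytosines (37.8%, 36.6 to 38.9). Another 5caC cytosine lay within 200 bp of 139 shared (44.3%, 38.7 to 50.0) and 1583 5caC-only cytosines (35.2%, 33.8 to 36.7). Whether depth in the libraries of the other mark sets the larger gaps was not tested.

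The neighbours were of both kinds. A 5fC-only cytosine lay within 200 bp of 135 shared cytosines (43.0%), a 5caC-only cytosine within 200 bp of 119 (37.9%), and both kinds near 55 (17.5%). No other listed cytosine lay within 200 bp of 107 (34.1%, 28.8 to 39.6). The nearest listed cytosine was 50 bp away in the median. Of the 453 neighbours within 200 bp, 343 (75.7%) were on the strand of the shared cytosine, and the same held for 75.9% of the neighbours of 5fC-only and 74.5% of those of 5caC-only cytosines. Neighbours on 1 strand can be read on the same fragments, so they are not separate observations.

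At the nearest 5fC-only neighbour the bisulfite-only percentage in the 5fC library was a little higher than at the shared cytosine itself, with medians of 29.4% and 25% over 135 shared cytosines. The neighbour was higher at 79 and lower at 52. For the nearest 5caC-only neighbour the 5caC medians were 13.6% and 13.3% over 119 shared cytosines, higher at 61 and lower at 50. The rank correlation between shared cytosine and neighbour was 0.36 in the 5fC and 0.31 in the 5caC library, over cytosines that often share fragments.

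The shared cytosines formed no large groups of their own. Joined within 200 bp they made 21 pairs, on 14 chromosomes, and 272 stood without another shared cytosine. The pairs were 5 to 146 bp apart, 14 of them within 50 bp, and 17 of the 21 had both cytosines on the same strand. Within a pair the median gap between the levels was 8.85 points for 5fC and 6.39 points for 5caC, and the gap between bisulfite-only percentages was 13.1 and 7.58 points.

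The pair of chromosome 15 at 74917176 and 74917322, both on the plus strand, held the lowest 5caC level of all shared cytosines at its first member and one of 34.5 points at its second, 146 bp on. On chromosome 7 the plus-strand cytosines at 151977801 and 151977807 were unconverted in 38 of 52 and 33 of 55 bisulfite-only 5fC reads, and in 78 of 83 and 71 of 87 protected ones. In the 5caC libraries they were unconverted in 16 of 24 and 12 of 27 bisulfite-only reads, and in 24 of 25 and 23 of 27 protected ones. Their 5fC levels were 20.9 and 21.6 points and their 5caC levels 29.3 and 40.7 points. A pair of 5caC-only cytosines lay 17 and 26 bp from the first, with levels of 24.6 and 33.4 points.

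The most crowded pair was on chromosome 11, at 103673754 and 103673837 on the plus strand. Its first cytosine read as C in 9 of 32 bisulfite-only and 32 of 49 protected 5fC reads and in 2 of 25 and 29 of 61 5caC reads, for levels of 37.2 and 39.5 points. Its second gave 10 of 35 and 31 of 53 5fC reads and 4 of 22 and 22 of 44 5caC reads, for levels of 29.9 and 31.8 points. Within 400 bp lay 9 further 5fC cytosines and 4 further 5caC cytosines. The bisulfite-only percentage of the pair in the 5fC library, 28.1% and 28.6%, was below that of 8 of the 9 further 5fC cytosines, which ran from 50% to 84.8%, and above the ninth, at 15%. Between the pair, 41 and 43 bp from its first member, positions 103673795 and 103673797 were 5fC-only, with 20 of 32 and 22 of 32 bisulfite-only reads unconverted.

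**Figure D5:**
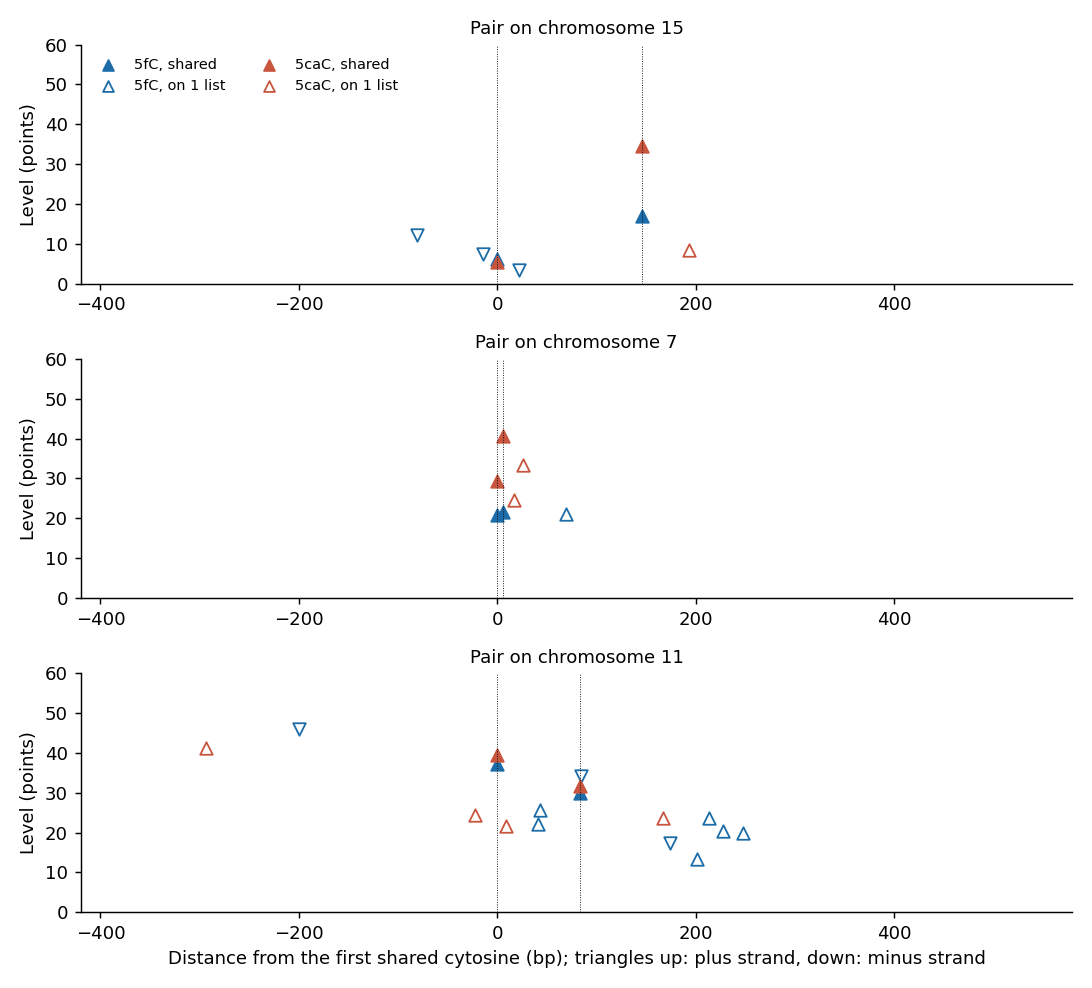
Levels (percentage points) of all listed cytosines within 400 bp of 3 pairs of shared cytosines, against the distance in bp from the first shared cytosine of the pair (dotted lines mark both); filled symbols are shared, open ones on 1 list, and triangles point up for the plus and down for the minus strand. The pair on chromosome 11 has 9 further 5fC and 4 further 5caC cytosines around it, and the first shared cytosine on chromosome 15 has low levels of both marks, 6.12 and 5.34 points.

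The position 1 bp towards the 3′ end, on the other strand, is where the partner cytosine of a CpG lies. Whether the shared cytosines stand in CpGs was not checked, since no genome of the mm9 build was used here, so "partner" below means that position only. It was on neither list for 297 of the 314 shared cytosines, on the 5fC list for 6 (1.91%, exact interval 0.704 to 4.11) and on the 5caC list for 11 (3.50%, 1.76 to 6.18). A partner on both lists was found for 0 of 314, which by the 3-count limit allows a share of up to 0.955%. Among 5fC-only cytosines 58 of 6899 (0.841%, 0.639 to 1.09) had the partner on the 5fC list and 41 (0.594%, 0.427 to 0.805) on the 5caC list. Among 5caC-only cytosines 46 of 4492 (1.02%, 0.751 to 1.36) had it on the 5fC list and 71 (1.58%, 1.24 to 1.99) on the 5caC list. All of these intervals overlap those of the shared cytosines for the same list, except that of 5fC-only cytosines for the 5caC list. Unlisted partners are not shown to be unmodified or to be cytosines in a CpG, because their reads are not in the lists.

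Where the partner was listed, its level can be set beside that of the shared cytosine. The smallest gap was 0.81 points, in the 5caC level at position 28698478 of chromosome 6. No interval was computed for these gaps, so none is read as a difference beyond counting error. For the 6 partners on the 5fC list the median 5fC level was 36.1 points (24.8 to 51.1), against 30.5 (9.68 to 61.4) at the shared cytosines, and the partner was the higher at 5 of the 6. The deepest of them, position 3093066 of chromosome 11, plus strand, read as C in 470 of 904 protected and 231 of 546 bisulfite-only 5fC reads, and its partner in 49 of 108 and 14 of 68, for levels of 9.68 and 24.8 points. The 1 shared cytosine with the higher level was position 14221579 of chromosome 1, plus strand, with 10 of 14 and 1 of 10 reads against 7 of 11 and 2 of 16, a difference of 10.3 points. For the 11 partners on the 5caC list the median 5caC level was 43.3 points (20.7 to 56.3), against 37.7 (30.4 to 45.7), and the shared cytosine was the higher at 5. Shared minus partner differences there ran from -20.8 points at position 142852770 of chromosome 4, with 11 of 31 protected and 0 of 21 bisulfite-only 5caC reads against 9 of 16 and 0 of 16, to 22.8 points at position 73336425 of chromosome 8, with 10 of 23 and 0 of 15 against 6 of 29 and 0 of 23.

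Plus and minus strands held 157 shared cytosines each, and the 314 lay on 20 chromosomes. On the autosomes they made up from 2.33% to 7.21% of a chromosome's 5fC list and from 3.42% to 8.56% of its 5caC list. Chromosome 11 held the most, 29, and chromosome 19 the highest share of both lists, 16 of 222 5fC cytosines (7.21%, exact interval 4.18 to 11.4) and 16 of 187 5caC cytosines (8.56%, 4.97 to 13.5). The X chromosome held 2, at 166419799 and 166425627, 5828 bp apart. The first, on the minus strand, gave 9 of 34 bisulfite-only and 35 of 56 protected 5fC reads and 7 of 51 and 26 of 70 5caC reads, for levels of 36.0 and 23.4 points.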

How the data were processed

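DNA from Tdg knockout cells was immunoprecipitated and bisulfite sequenced by the authors. Bismark, HOMER and the mm9 build are named in the submitters' processing notes, with no step given for any of them. Per the file headers, the authors deposited for each listed cytosine 4 read counts with no normalization, a difference of fractions and a p-value. As recomputed here, the deposited fraction difference matches the counts within 0.0001, and the deposited p-value matches Fisher's exact test (two-sided, unadjusted) within 1% at all sites. Levels, intervals and distances were computed with Python 3.11.15, numpy 2.4.6, pandas 2.3.3 and scipy 1.17.1, and plots with matplotlib 3.10.9. The functions were checked on simulated data. Neighbours were counted within 200 bp.

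The members and the sets of named cytosines were chosen with earlier results of these data known. Named are the 10 cytosines with the highest smaller level and the 10 deepest, the extremes of each difference between the marks (5 each way), of bisulfite-only percentage (5 each) and of p (3 per mark), the 5 top groups and any pair of adjacent opposite-strand positions shared on both strands; examples are printed, and others (single members of the intervals that are apart or exclude 0, of partners and of X) were chosen after their values were seen. Positions are those of the files (mm9); tables of GRCm38.p6 were not used, and neither genes nor sequences were assigned. Copied reads and read depth outside the lists are not given in the sources used here.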

Additional observations from a re-analysis of the deposited data

How the results depend on the processing

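Of 53 alternatives, 33 left a value within its interval or a count within 1.5 times. With at least 20 reads in all 4 libraries 68 cytosines were shared, and with both p-values below 0.01 81 were. At 20 reads the median levels were 31.0 points (5fC) and 33.3 (5caC), their difference -1.45, and the bisulfite-only medians 25.7% and 16.6%. At p below 0.01 the levels were 49.1 and 46.2 points and the 5caC bisulfite-only median 8.70%. The partner was listed for 6 of those 81 cytosines (7.41%), against 17 of all 314 (5.41%). As a relative rise the medians were 55.8% and 50.2% and their difference 5.78 points. From summed reads the levels were 27.7 and 32.1 points and their difference -4.43. At 30 reads (added after seeing the data) it was -3.62 over 14 cytosines. The bisulfite-only difference between the libraries stayed between 8.30 and 9.49 points in all 6 alternatives. In the band of 20 to 39 reads, added after seeing the data, the shared minus 5fC-only bisulfite-only median was -25 points, and the excess of cytosines with a neighbour over 5caC-only ones 15.3 points. No paired analysis was possible because each group had 1 library and the labels give no replicate numbers. Most cytosines had under 20 reads in some library, and apart from 2 deep cytosines every level difference whose interval excluded 0 was over 30 points.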
